A study of Mus musculus with 6 samples.

Results

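The TRF series comprised the 1767 array probes, of 14242 in all, whose identifier began with ASMM10SMR20TRF. Each was printed as 1 spot on an array for mouse small RNA. Membership followed from the probe identifier alone and used no measured value. The sources used here do not explain the letters TRF, and the files give these probes neither an RNA name nor a sequence, so each probe is named by its identifier number.

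The study asked how extracellular vesicles (EVs) from the blood of mice with lung cancer act on the heart, and short RNA from plasma EVs was profiled on 6 arrays. The 3 non-cancer-EVs samples came from control mice and the 3 cancer-EVs samples from mice with lung cancer. The study describes the latter as bearing LLC, the Lewis lung carcinoma line, and its methods give C57BL/6J mice aged 6 to 8 weeks. The labels name no genotype, tumor dose, day of sampling or pooling of animals, and nothing states whether 1 sample was 1 mouse, so the p-values below measure only the spread between these samples. The treatment text of the labels speaks of irradiated blood of volunteers, whereas the organism, the sample descriptions and the study give mice. Groups were taken from the disease label.

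EVs are membrane-bound particles that cells release into body fluids and that carry proteins and RNA. Their short RNAs include microRNAs, which guide Argonaute proteins to messenger RNAs, and fragments of other transcripts, among them pieces cut from transfer RNAs by nucleases. Many such fragments end in a phosphate, which blocks the enzymes that attach a label. RNA for these arrays was dephosphorylated before labeling with the dye Cy3, so that fragments of that kind could be labeled too.

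Most TRF probes gave a signal above background. Of the 1767 probes, 1607 were well above background on all 6 arrays and 26 on none. Between 92.2% and 98.4% were above background on each array, and no spot was saturated. Values below are log2 of the fluorescence after quantile normalization, a step that gives every array the same distribution of values. The median TRF probe lay at 5.28, 5.20 and 5.23 in the non-cancer-EVs and at 5.24, 5.12 and 5.16 in the cancer-EVs. The median over all probes lay between 5.03 and 5.05, slightly below the TRF median on every array. Brightness also depends on how well a probe binds, and therefore does not rank RNA amounts between probes.

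The levels of TRF probes were skewed toward dim values. Of the 1767 probes, 410 (23.2%) had a mean log2 level under 4, 801 (45.3%) lay between 4 and 6, 404 (22.9%) between 6 and 8, and 129 (7.30%) between 8 and 10. Only 23 probes (1.30%) exceeded 10. Arrays of one group gave similar profiles over the 1714 TRF probes tested, with Pearson's r of 0.959 to 0.989 among non-cancer-EVs and 0.953 to 0.973 among cancer-EVs. Between the groups r ranged from 0.918 to 0.981, which overlapped both ranges. These correlations are across probes, which share the arrays and are not independent replicates. The SD of a typical probe was 0.19 in the non-cancer-EVs and 0.20 in the cancer-EVs on the log2 scale, and in each group 21 probes had an SD above 1.

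On the linear scale, TRF probes held a small part of the light on the arrays. They made up 12.4% of the probes tested but 1.98%, 2.39% and 2.26% of the summed signal in the non-cancer-EVs, and 2.84%, 2.49% and 2.43% in the cancer-EVs. Every cancer-EVs array was above every non-cancer-EVs array. The means were 2.21% ± 0.21 and 2.59% ± 0.22 (SD, n = 3 each), a difference of 0.378 percentage points (exact permutation test, two-sided, p = 0.1, the smallest that 3 against 3 arrays can give). The groups overlapped without normalization between arrays, where the difference was 0.178 percentage points (exact permutation p = 0.4). They also overlapped when the brightest TRF probe was left out, with a difference of 0.196 percentage points (exact permutation p = 0.3). Without cancer-EVs replicate 1 the difference was 0.252 percentage points.

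The TRF signal was concentrated in few probes, with a larger share in them on each cancer-EVs array. The 10 brightest TRF probes of each array, 0.566% of the series, held 20.8%, 33.8% and 30.3% of the TRF signal in the non-cancer-EVs and 35.2%, 35.8% and 36.7% in the cancer-EVs. The 3 cancer-EVs arrays lay close together above all non-cancer-EVs arrays, of which replicate 1 was the lowest. The means were 28.3% ± 6.74 and 35.9% ± 0.75 (SD, n = 3 each), and the difference of 7.59 percentage points had an exact permutation p of 0.1, again the smallest possible. Without non-cancer-EVs replicate 1 the difference was 3.84 percentage points. The number of probes that together held 50% of the TRF signal was 86, 50 and 61 in the non-cancer-EVs and 40, 48 and 41 in the cancer-EVs. The identity of the brightest probes was partly shared, since 5 probes were among the 10 brightest on all 6 arrays and 15 were among them on at least 1.

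The brightest TRF probe by mean level was ASMM10SMR20TRF100001086TV1, referred to by its number, 100001086. It measured 12.22, 12.82 and 14.21 in the non-cancer-EVs and 15.37, 14.17 and 14.76 in the cancer-EVs. The groups overlapped, because non-cancer-EVs replicate 3 was slightly above cancer-EVs replicate 2. Its log2 difference was 1.69 (SE 0.50), with a limma p past the unadjusted cutoff used below and an adjusted p of 0.629. It missed that cutoff in the methods' t-test. This probe alone held 2.27%, 2.85% and 7.93% of the TRF signal in the non-cancer-EVs and 14.1%, 7.04% and 10.8% in the cancer-EVs.

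The next 3 probes in brightness moved together across the arrays. Probe 100008894 measured 12.96, 14.25 and 13.57 in the non-cancer-EVs and 13.60, 14.12 and 14.04 in the cancer-EVs. Probe 100008899 measured 12.79, 14.16 and 13.53, and then 13.61, 13.98 and 13.93. Probe 100008870 measured 12.65, 14.10 and 13.47, and then 13.57, 13.94 and 13.88. In all 3 probes non-cancer-EVs replicate 1 was the lowest array and non-cancer-EVs replicate 2 the highest, and the groups overlapped. Their log2 differences were 0.32, 0.35 and 0.39 (SE 0.32, 0.32 and 0.33), and limma's adjusted p lay between 0.740 and 0.763.

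The fifth in brightness, probe 100004790, measured 10.23, 12.56 and 11.92 in the non-cancer-EVs and 12.45, 12.79 and 12.05 in the cancer-EVs. Its groups overlapped too, with a log2 difference of 0.86 (SE 0.53, limma adjusted p = 0.694). With all arrays, none of these 4 probes passed the cutoffs of the comparison. Without non-cancer-EVs replicate 2 all 4 did, with log2 differences of 0.65 (100008894), 0.68 (100008899), 0.74 (100008870) and 1.35 (100004790). Without non-cancer-EVs replicate 1 none did, and the differences of the first 3 lay between -0.0023 and 0.01 and that of 100004790 at 0.19.

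Several of the brightest probes stood far above the probes numbered next to them. Numbers of TRF probes ran from 100000000 to 100010066, and 1226 of the 1766 steps from one probe to the next were of 4. The 280 steps of 12 or more divided the series into 281 stretches, a rule chosen after the numbers had been seen, since no run of numbers differing by 1 held more than 2 probes. Probes 100008894 and 100008899 belonged to the stretch from 100008882 to 100008914, whose 7 other probes had mean log2 levels of 3.50 to 5.75. Probe 100008870 was the last of the stretch just before it, from 100008850, whose 5 other probes lay between 3.60 and 5.19. Probe 100004790 and the seventh in brightness, 100004797, sat among 7 probes at 1.82 to 5.50, in the stretch from 100004778 to 100004810. Probe 100001086 had 7 neighbors at 5.26 to 7.96, in the stretch from 100001078 to 100001110.

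Brightness therefore varied widely within a stretch. The difference between the brightest and the dimmest member had a median of 4.07 on the log2 scale over the 175 stretches with 5 or more probes, and a maximum of 10.3. These 175 stretches held 1499 of the 1767 probes, and 72 stretches had exactly 9. Among stretches of at least 5 probes, all of them tested, the highest median level was that of the stretch from 100000273 to 100000304, whose 9 probes had a median of 7.81 and ranged from 3.65 to 10.23. The stretch from 100006298 to 100006330 followed with a median of 7.77 and a range of 3.99 to 11.28 over 9 probes.

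Probes close in number nevertheless tended to resemble each other. For the 9 pairs whose numbers differed by 1, r of the mean log2 level was 0.58 and r of the log2 difference between groups was 0.18. For the 1227 pairs that differed by 4, r was 0.47 for the level, and 0.45 for the difference over the pairs tested. At a distance of 8 the values were 0.24 and 0.10, and at 12 they were -0.09 and -0.08. The distances of 4, 8 and 12 were not among those planned. At the planned distances of 2 and 5 the values were 0.26 and 0.40 (61 pairs), and 0.41 and 0.20 (47 pairs). They were -0.17 and -0.36 at 10 (118 pairs), and -0.15 and -0.06 at 50 (141 pairs), so r did not fall evenly with distance. Across a step of 12 or more to the next probe, r was -0.03 for the level (280 pairs) and 0.11 for the difference (260 pairs tested).

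Probes printed side by side showed no such resemblance. For TRF spots next to each other on the slide, r was -0.05 for the level (1165 pairs) and -0.00 for the difference (1087 pairs tested). Of the 1766 pairs next in number order, 1 lay within 2 spots, and the median distance was 57 of the 192 rows. Among tested pairs at a step of 4, 72 of 1171 (6.15%) measured within 0.25 of each other on the log2 scale on every array, against 3 of 260 pairs (1.15%) across a step of 12 or more. All of these pairs share the same 6 arrays, so the values are descriptions across probes. Whether neighboring probes read overlapping parts of one RNA was not tested.

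Cancer-EVs were set against non-cancer-EVs in 1 limma fit over the 13801 probes of the array, 1714 of them TRF, that were well above background on at least 3 arrays. The study's cutoffs were a fold change above 1.4 and a p below 0.05, taken as unadjusted. At these cutoffs 44 TRF probes (2.57%) were higher in cancer-EVs and 40 (2.33%) were lower. Over all probes tested, 3.04% were higher and 1.71% lower, so the TRF share lay near the background in both directions. The methods' t-test gave 11 higher and 20 lower TRF probes, and normexp on spot medians gave 12 and 17. The counts moved with single arrays: without non-cancer-EVs replicate 1 there were 17 higher and 25 lower TRF probes, without non-cancer-EVs replicate 2 there were 95 higher, without cancer-EVs replicate 1 there were 62 lower, and without cancer-EVs replicates 2 and 3 in turn there were 24 and 116 higher. The whole array moved too. Of all probes tested, 4.75% passed the cutoffs in either direction with all arrays, and 2.85%, 7.12%, 7.71%, 2.99% and 8.45% did in these 5 fits, in the same order. With the test of the methods the share of all probes was 1.98%, and with normexp it was 1.55%, so the whole array gave fewer calls there too. After Benjamini-Hochberg adjustment over all 13801 probes no TRF probe passed 0.05, the lowest adjusted p being 0.384, and over all probes the share was 0%. At an unadjusted p below 0.05 without a fold cutoff there were 105 TRF probes (6.13%), against 6.9% of all probes. The words higher and lower refer below to the unadjusted cutoffs unless an adjusted p is given.

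Separation of the groups was likewise near the background. All 3 cancer-EVs arrays lay above all 3 non-cancer-EVs arrays in 58 TRF probes (3.38%), against 4.51% of all probes, and below them in 135 (7.88%), against 8.74%. The median log2 difference was -0.07 for TRF probes and -0.07 for all probes tested. From the 10th to the 90th percentile, TRF differences ran from -0.29 to 0.37, and their median SE was 0.18.

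The higher probes reached larger differences than the lower ones. The 44 higher probes had log2 differences of 0.50 to 2.67 with a median of 0.91, and 20 of them exceeded 2-fold. The 40 lower probes had differences of -0.51 to -1.70 with a median of -0.72, and 17 of them exceeded 2-fold. Within the higher probes the median SD was 0.54 in the non-cancer-EVs and 0.44 in the cancer-EVs, and within the lower probes it was 0.23 and 0.44. By mean log2 level, 9 higher and 8 lower probes lay under 4, 12 and 16 between 4 and 6, 15 and 15 between 6 and 8, 7 and 1 between 8 and 10, and 1 and 0 over 10, which was not tested.

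Past 2-fold, the TRF share of higher probes was 1.17%, against 1.26% of all probes tested. The share of lower probes was 0.992%, against 0.246%. The 17 TRF probes made up 50% of the 34 probes on the whole array that were lower past both the p cutoff and 2-fold. Of these 17, 15 lay in 5 runs of 3 probes next to each other in number, described below. Without cancer-EVs replicate 2 the counts were 11 TRF probes of 25, and without cancer-EVs replicate 3 they were 11 of 35. With spot medians in place of the processed signal, corrected by normexp with an offset of 50, they were 1 of 12. Which of these changes moved the count was not tested.

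The largest rise with all 6 arrays above background and no overlap between groups was that of ASMM10SMR20TRF100000203TV1. Probe 100000203 measured 5.44, 6.98 and 6.54 in the non-cancer-EVs and 9.91, 8.74 and 8.31 in the cancer-EVs. Its means were 6.32 ± 0.80 and 8.99 ± 0.83 (SD, n = 3 each), a log2 difference of 2.67 (SE 0.49), or 6.36-fold, with a limma adjusted p of 0.384. The neighboring probe 100000199 measured 4.90, 6.47 and 6.18, and then 9.17, 8.19 and 7.67, a log2 difference of 2.49 (SE 0.48), or 5.63-fold, with the same adjusted p. Both probes had non-cancer-EVs replicate 1 as their lowest array and cancer-EVs replicate 1 as their highest. The 7 other probes of their stretch, 100000187 to 100000217, differed by -0.36 to 0.20, so within it the rise was measured by 2 adjacent probes of 9. Probe 100000175, the last of the stretch just before and named after its values were seen, measured 5.21, 6.30 and 6.01, and then 8.88, 7.87 and 7.45. Its log2 difference was 2.23 (SE 0.40), with a limma adjusted p of 0.384. Of the 9 probes in its stretch, 2 were higher and 2 lower. With normexp on spot medians the log2 differences were 2.05 (100000203) and 1.77 (100000199).

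The largest fall by the same rule was that of ASMM10SMR20TRF100004906TV1. Probe 100004906 measured 6.42, 6.81 and 6.46 in the non-cancer-EVs and 5.78, 4.50 and 4.29 in the cancer-EVs. Its means were 6.56 ± 0.21 and 4.86 ± 0.81 (SD, n = 3 each), a log2 difference of -1.70 (SE 0.37), or 3.26-fold lower, with a limma adjusted p of 0.424. Probe 100004902 measured 6.46, 6.85 and 6.60, and then 5.90, 4.69 and 4.38, a log2 difference of -1.65 (SE 0.36), or 3.14-fold lower, with the same adjusted p. The non-cancer-EVs arrays lay close together, whereas in the cancer-EVs replicate 1 was much nearer to the non-cancer-EVs than replicates 2 and 3 were. With normexp on spot medians, offset included, the differences were -0.83 (100004906) and -0.80 (100004902), and both probes still passed the unadjusted cutoffs.

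Lower probes occurred in runs of neighbors more than higher probes did, by count. Of the 40 lower probes, 26 lay in 10 runs of 2 or more probes next to each other in number, and 18 in 6 runs of 3. The count in runs of 3 or more was 9 with the methods' t-test, 12 with normexp on spot medians and 25 without cancer-EVs replicate 1. Of the 44 higher probes, 16 lay in 7 such runs, 6 of them in 2 runs of 3, and 28 stood alone. With all arrays and the settings of the report, no run exceeded 3 probes. The difference between the directions was not tested. In the 6 lower runs of 3, all 18 probes were above background on 6 arrays and had no overlap between the groups. The same held for 32 of all 40 lower probes. Of all probes tested, 8.74% lay lower without overlap. The 18 had been picked by p and fold, which favors separated groups, so this count adds no support.

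The run from 100004898 to 100004906, which includes both named falls, had array means of 6.45, 6.90 and 6.55 in the non-cancer-EVs and 5.87, 4.63 and 4.42 in the cancer-EVs. The run from 100004866 to 100004874, in the same stretch, had 5.48, 5.93 and 5.60, and then 5.01, 4.02 and 3.53. The run from 100004946 to 100004954 had 5.25, 5.68 and 5.41, and then 4.89, 3.84 and 3.73. Over these 3 runs log2 differences ranged from -1.22 to -1.70, and limma's adjusted p from 0.424 to 0.442.

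A further pair of runs gave nearly the same values as each other. The run from 100004622 to 100004630 had array means of 7.91, 8.37 and 7.84 in the non-cancer-EVs and 7.72, 6.43 and 6.59 in the cancer-EVs. The run from 100004666 to 100004674 had 7.88, 8.32 and 7.86, and then 7.71, 6.41 and 6.63. The largest difference between the means of these 2 runs on any array was 0.0505, although they belong to different stretches. Log2 differences ranged from -1.08 to -1.15 over the 6 probes. The sixth run, from 100004522 to 100004530, had the smallest changes, of -0.59 to -0.61.

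In 5 of the 6 lower runs, cancer-EVs replicate 1 was the array nearest to the non-cancer-EVs, and the exception was the run from 100004522, where it was replicate 3. The fall in the other runs was thus largest in cancer-EVs replicates 2 and 3. Probes beside the runs differed to varying degrees. In the stretch from 100004946 to 100004978, the 6 probes outside the run of 3 differed by -0.71 to 0.96, and 2 of them were lower. In the stretch from 100004866 to 100004918, which holds 2 runs of 3 among its 13 probes, the 7 other probes differed by -0.24 to 0.11. One of these, 100004879, chosen after its values were seen, had the widest spread of any tested TRF probe within the cancer-EVs, at 12.15, 10.08 and 8.59, against 10.12, 10.30 and 10.08 in the non-cancer-EVs. It was not alone in this. Probe 100004978, chosen likewise, had 10.67, 8.96 and 7.48 in the cancer-EVs, against 8.81, 8.88 and 8.60. Probe 100005004, also chosen likewise, had 11.89, 9.94 and 8.54, against 9.97, 10.14 and 9.90.

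The higher runs of 3 were fewer. The run from 100000535 to 100000543 had array means of 8.60, 7.96 and 8.14 in the non-cancer-EVs and 9.60, 8.97 and 10.31 in the cancer-EVs, without overlap in any of its probes. Its log2 differences were 1.30 to 1.58, with limma's adjusted p between 0.424 and 0.450, and cancer-EVs replicate 3 was the highest array. The run from 100005734 to 100005752, which spans a step of 12 and so the border of 2 stretches, had 6.60, 8.45 and 8.14, and then 9.24, 9.15 and 8.33. There the groups overlapped, and the log2 differences of 1.06 to 1.24 came with a low value in non-cancer-EVs replicate 1.

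The calls were spread unevenly over the numbers. From 100004002 to 100004998, 25 of 174 tested probes (14.4%) were lower and 0 were higher, so that this range held 25 of the 40 lower probes. All 6 lower runs of 3, with 18 probes that largely moved together, lay in it. Over all TRF probes tested, 2.33% were lower and 2.57% higher, and over all probes of the array 1.71% and 3.04%. From 100000000 to 100000998, 16 of 214 (7.48%) were higher and 4 were lower. Each of the other ranges, of like width except the last with its 13 tested probes, held 0 to 6 higher and 0 to 3 lower probes. With normexp on spot medians, and likewise with the methods' t-test, the first range held 13 lower probes. These ranges were compared with no test, and their probes include the runs described above.

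The change of a stretch was summarized by its median, which can join members of either direction. Medians of the log2 difference ran from -0.58 to 0.27 over the 153 stretches of at least 5 probes in which every probe was tested. The lowest of these medians, -0.58, was that of the stretch from 100004946 to 100004978, in which 5 of 9 probes were lower. The next lowest, -0.50, was that of the stretch from 100004990 to 100005018, in which 3 of 7 were. The highest were 0.27 in the stretch from 100000000 to 100000032, where 2 of 9 probes were higher and 1 was lower, and 0.24 in the stretch from 100006854 to 100006886, where 0 of 9 passed the cutoffs.

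Of the 2 stretches with the highest median levels above, 1 held higher probes. In the stretch from 100006298 to 100006330, differences of the 9 probes ranged from -0.22 to 0.23 and 0 passed the cutoffs. In the stretch from 100000273 to 100000304, 3 of 9 probes were higher, and they were its 3 dimmest. Its neighboring probes 100000285 to 100000289, named after their values were seen, had array means of 4.31, 6.48 and 5.64 in the non-cancer-EVs and 7.54, 7.47 and 6.90 in the cancer-EVs. Non-cancer-EVs replicate 1 was far below the other arrays there. The 3 brightest members of that stretch, with mean levels of 9.41 to 10.23, differed by 0.01 to 0.12.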

How the data were processed

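RNA (100 ng per sample) from 6 plasma EV samples was labeled with Cy3 and hybridized to 1-color small RNA arrays. For every array the authors deposited scanner output from Agilent Feature Extraction 11.0.1.1, with a background-subtracted intensity per spot on a linear scale. A series table of log2 values, quantile normalized by the authors in GeneSpring GX, was deposited too and served as an alternative. Over TRF probes, the median absolute difference between that table and the values used here was 0.04, and for 59 probes it exceeded 0.5 on at least 1 array.

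Spots for controls and those carrying an outlier mark were excluded. Intensities of all other spots were quantile normalized between the 6 arrays, floored at 1 and expressed as log2. Quantile normalization removes differences in total signal between samples, so only relative changes were measured. Probes well above background on at least 3 arrays were tested in one two-sided fit without covariates (lmFit followed by eBayes of limma 3.58.1, under R 4.3.3), cancer-EVs minus non-cancer-EVs. Cutoffs were those of the methods. The methods name no adjustment of p, which was taken as unadjusted, and Benjamini-Hochberg values were computed over all probes tested. The t-test that the methods name in general, but not for the arrays, was an alternative. The fit was tested on simulated data beforehand. The planned grouping of identifiers that differ by 1 gave no usable groups and was replaced by stretches. The number of arrays limits the precision, and raw TRF medians ranged from 27.4 to 48.0 before normalization.

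Named probes are the 5 brightest and the 2 largest rises and falls past both cutoffs, above background on all arrays without overlap. Named stretches, among those of at least 5 probes that were all tested, have the 2 highest median levels and the 2 largest and smallest median changes. The members and lists were chosen with earlier results of these data known. All 6 arrays came from 1 scan, so no scan batch could be compared. Same-numbered samples of the groups deviated together with r of 0.09, 0.25 and -0.22, so the numbers were not taken as pairs.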

Additional observations from a re-analysis of the deposited data

How the results depend on the processing

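Counts of TRF probes at the cutoffs, 44 higher and 40 lower, changed with several settings. Spot medians with normexp and an offset of 50, in place of the processed signal, gave 12 higher and 17 lower. The methods' t-test gave 11 and 20, and a 2-fold cutoff gave 20 and 17. Higher probes made up 52.4% of the TRF calls as reported, and from 35.5% (the methods' t-test) to 73.6% (without non-cancer-EVs replicate 2) over the alternatives. Over all probes tested, 420 were higher and 236 lower as reported. With the replicate number as a block, a pairing that the samples did not show, there were 70 higher and 43 lower. The whole array moved with these settings too. Of all probes tested, 4.75% passed in either direction as reported, 1.55% with normexp, 1.98% with the methods' t-test and 7.06% with the block. Leaving out 1 array at a time gave 17 (without non-cancer-EVs replicate 1) to 116 (without cancer-EVs replicate 3) higher, and 25 (without non-cancer-EVs replicate 1) to 62 (without cancer-EVs replicate 1) lower. Without cancer-EVs replicate 2 there were 24 higher, and without non-cancer-EVs replicate 2 there were 95. Over all probes the share passing ran from 2.85% (without non-cancer-EVs replicate 1) to 8.45% (without cancer-EVs replicate 3). The cause was not tested. The 75th percentile scaling, cyclic loess, both filters, kept outlier spots, the authors' table and limma with a trend gave 36 to 52 higher and 31 to 44 lower. In every setting 0 TRF probes passed an adjusted p of 0.05. Probes 100000199, 100000203, 100004902 and 100004906 kept their direction and passed the cutoffs in all 16 alternatives, but with normexp on spot medians their differences were 1.77, 2.05, -0.80 and -0.83, in that order. Probe 100001086 did so in 15, with a methods' t-test p of 0.0688 in the other. Probe 100008899 turned to -0.0023 without non-cancer-EVs replicate 1, and was at 0.68 and past the cutoffs without non-cancer-EVs replicate 2. The 25 lower probes numbered 100004002 to 100004998 became 13 with normexp and 13 with the methods' t-test. The r of 0.58 for numbers that differ by 1 rested on 9 pairs, and was 0.43 by Spearman, 0.35 for probes next in order, 0.47 for numbers that differ by 4 and -0.032 across a step of 12 or more.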
